A study of Mus musculus with 64 samples.

Results

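Resting cells in which Foxp3 had been restored for 14 or 28 days were compared with resting cells in which it had been restored for 3 or 7 days. The late group held the 4 plusFoxp3 libraries of days 14 and 28, and the early group the 4 plusFoxp3 libraries of days 3 and 7, chosen by their labels from 64 bulk RNA-seq libraries of mouse cells. The 8 minusFoxp3 libraries of the same days served as the control for time. Of 55809 genes in the files, the 20178 with a mean of at least 10 counts over the 8 plusFoxp3 libraries were tested.

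All of these mice carried the reversible reporter-null Foxp3 LSL allele, in which a loxP-flanked Thy1.1-STOP cassette keeps the gene off until Cre removes it and a GFP reporter is then transcribed. The plusFoxp3 mice also carried CreERT2 driven from Cd4, the minusFoxp3 mice did not, and both received a single dose of 4-hydroxytamoxifen (4-OHT). According to the methods of the study the donors were heterozygous females, so normal Foxp3-sufficient Treg cells were present in the same hosts. The plusFoxp3 cells were sorted as GFP+ and the minusFoxp3 cells, called Treg 'wannabe' cells, as Thy1.1+ GFP-. The minusFoxp3 cells carry no mark of the day of the dose, so a match of cell age between the arms was not tested. Resting cells were CD62L high and CD44 low and came from spleen and lymph nodes. Untreated Foxp3 GFP mice gave 2 libraries of normal resting Treg cells, here called GFP Treg. Each day and genotype had 2 libraries, which the methods describe as independent biological replicates. Ages are not given in the labels.

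Foxp3 is the transcription factor that defines regulatory T (Treg) cells, which restrain other T cells. It is encoded on the X chromosome, and cells that transcribe a null allele keep part of the Treg phenotype without its suppressive function. Among the genes long known to be raised in Treg cells are receptors for IL-2 and surface molecules that act on other cells, and among those lowered are transcription factors of naive T cells.

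The 16 libraries of days 3 to 28 held between 35097257 and 57049049 counted read pairs. Foxp3 (chromosome X, 7439883 to 7461484, GRCm39) was read first, in CPM, its count as a share of the library total scaled by TMM. In plusFoxp3 libraries it was at 592 and 575 CPM at day 3, 436 and 599 at day 7, 625 and 630 at day 14, and 521 and 628 at day 28. The minusFoxp3 libraries were at 48.1 to 79.7 CPM, so each of these 16 libraries matched its label. The plusFoxp3 libraries of day 0, which enter only the shared estimate of spread, were at 80.8 and 70.3 CPM, near the minusFoxp3 level. Late and early plusFoxp3 libraries overlapped, and the log2 fold change of late over early was 0.13 (SE 0.12, edgeR adjusted p = 1.00). The minusFoxp3 libraries gave -0.36 (SE 0.12, edgeR unadjusted p = 0.00969, edgeR adjusted p = 0.988). The difference between the plusFoxp3 and minusFoxp3 changes was 0.49 (SE 0.17, edgeR unadjusted p = 0.0123, edgeR adjusted p = 0.856). The gene overlaps several others, among them Flicr on the same strand, and the counting did not use strand. The summed CPM of 8 CD4 T cell markers was 7081 to 7521 in the 8 plusFoxp3 libraries and no marker was at 0.

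Few single genes differed between late and early cells after correction over all genes, and 3 of the 4 that did were lower late. In plusFoxp3 cells edgeR called 4 of 20178 genes (0.0198%), with Cep112 higher and Dkk3, Ggt5 and A530021J07Rik lower. In minusFoxp3 cells of the same days 0 genes (0%) were called. Dkk3 was also the 1 gene (0.00496%) called in the test of the difference between the plusFoxp3 and minusFoxp3 changes. At an unadjusted p under 0.05 there were 499 higher genes (2.47%) and 402 lower genes (1.99%) in plusFoxp3 cells, against 309 (1.53%) and 575 (2.85%) in minusFoxp3 cells. DESeq2, run on the same libraries, called 49 genes (0.243%) in plusFoxp3 cells, 27 higher and 22 lower, and 0 (0%) in minusFoxp3 cells. It called 17 (0.0843%) for the difference between the changes. Ggt5 was the only called gene to meet the rule for named genes. Cep112, Dkk3 and A530021J07Rik are named because so few were called, which was decided after their values were seen.

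Ggt5 (chromosome 10, 75425174 to 75453034) encodes a gamma-glutamyltransferase that acts on glutathione conjugates and leukotriene C4. It was at 5.23 and 11.3 CPM at day 3, 3.46 and 5.94 at day 7, 2.22 and 3.12 at day 14, and 1.59 and 1.48 at day 28 in plusFoxp3 cells. The minusFoxp3 libraries held 22.2 to 36 CPM and GFP Treg cells 0.149 and 0.136 CPM. The late plusFoxp3 libraries all lay below the early ones, and all 8 lay between the minusFoxp3 and GFP Treg levels. The change was -1.62 on the log2 scale (SE 0.24, edgeR adjusted p = 0.0223), and in minusFoxp3 cells it was 0.24 (SE 0.22, edgeR adjusted p = 0.988).

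A530021J07Rik (chromosome 7, 82710991 to 82828637), a gene model with no assigned function, had the same order of levels. It was at 11.7 and 8.15 CPM at day 3, 7.41 and 6.54 at day 7, 3.99 and 4.66 at day 14, and 1.83 and 1.92 at day 28. The minusFoxp3 libraries held 31.9 to 67.9 CPM and GFP Treg cells 1.06 and 1.07 CPM, so the day 28 libraries were close to the GFP Treg level. It fell by 1.54 on the log2 scale (SE 0.21, edgeR adjusted p = 0.0196), against -0.17 (SE 0.20, edgeR adjusted p = 0.988) in minusFoxp3 cells. It overlaps 5930435M05Rik on the opposite strand, and reads of the 2 could not be told apart by strand.

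Dkk3 (chromosome 7, 111715224 to 111758264) encodes a secreted glycoprotein of the dickkopf family. It was at 1.33 and 2.35 CPM at day 3, 0.964 and 0.599 at day 7, 0.0436 and 0.159 at day 14, and 0.0218 and 0.0845 at day 28. These are 245 read pairs over the 4 early libraries and 15 over the 4 late ones, with 1 to 8 in each late library. Dkk3 thus met the filter on mean count only through its early libraries. The fit without that filter also called it, both in plusFoxp3 cells and for the difference between the arms. The gene fell by 3.97 on the log2 scale (SE 0.48, edgeR adjusted p = 0.00654), and the difference from the minusFoxp3 change was -4.60 (edgeR adjusted p = 0.028). With each of the 16 libraries of both arms left out in turn, the call for that difference was kept in 3 fits. With a replicate block the same difference had an edgeR adjusted p of 0.0554. Its late level lay away from GFP Treg cells, which held 3.14 and 3.31 CPM, and below the minusFoxp3 libraries at 0.3 to 1.38 CPM. GFP Treg cells differed from late plusFoxp3 cells by 5.39 on the log2 scale (edgeR adjusted p = 0.00015).

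Cep112 (chromosome 11, 108316018 to 108751441) encodes a centrosomal protein and was the gene that rose. It was at 0.118 and 0.0965 CPM at day 3, 0.132 and 0.0887 at day 7, 0.349 and 0.258 at day 14, and 1.64 and 0.718 at day 28. The early libraries held 20 read pairs in all, 4 to 7 in each, and the late ones 138, 13 to 75 in each. Cep112 thus met the filter on mean count only through its late libraries. The fit without that filter also called it. The log2 fold change was 2.43 (SE 0.36, edgeR adjusted p = 0.0223), and GFP Treg cells held 5.28 and 7.33 CPM. The minusFoxp3 libraries stayed at 0.0638 to 0.243 CPM at a log2 fold change of -0.36 (edgeR adjusted p = 0.988). Cep112os1 overlaps it on the opposite strand.

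Most of these calls were lost with 1 library left out, while the fold changes stayed in a narrow range. With each of the 8 plusFoxp3 libraries left out in turn, Dkk3 was called in 6 of 8 fits, Ggt5 in 2, and A530021J07Rik and Cep112 in 1 each. The highest edgeR adjusted p was 0.124, 0.17, 0.17 and 0.201 in that order. The log2 fold changes stayed between -4.57 and -3.66 for Dkk3, -1.86 and -1.28 for Ggt5, -1.66 and -1.41 for A530021J07Rik, and 2.07 and 2.67 for Cep112. With only the 8 plusFoxp3 libraries in the fit, or with 1 mean per period, 0 genes were called.

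**Figure D1:**
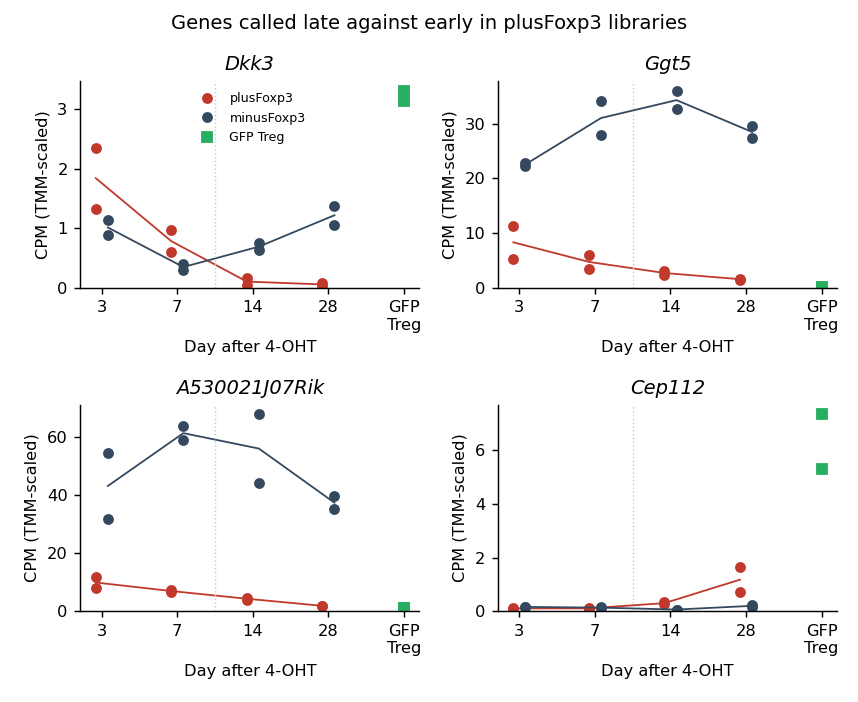
CPM of the 4 genes called between late and early plusFoxp3 cells, against day after 4-OHT, with 1 point per library, lines through the means of 2 libraries, and GFP Treg libraries as squares. The dotted line parts early from late days. Ggt5 and A530021J07Rik sit below the minusFoxp3 points throughout and lower late, Cep112 is highest at day 28 at 0.718 and 1.64 CPM, and Dkk3 is near 0 late while GFP Treg libraries hold 3.14 and 3.31 CPM.

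The genes that separate normal Treg cells from untreated 'wannabe' cells lay closer to the GFP Treg level in late than in early plusFoxp3 cells. These genes were taken from the contrast of GFP Treg with minusFoxp3 day 0 libraries, which shares no library with late or early cells: 293 genes were GFP Treg-high and 202 GFP Treg-low, at an edgeR adjusted p under 0.05 and a difference of 1 log2 unit or more. Of the GFP Treg-high genes 264 of 293 (90.1%) had a log2 fold change above 0 from early to late plusFoxp3 cells, with a median of 0.48, against 46.8% and -0.03 in minusFoxp3 cells. Of the GFP Treg-low genes 184 of 202 (91.1%) were below 0 with a median of -0.39, against 121 (59.9%) and -0.04 in minusFoxp3 cells. Over all genes tested, 50.4% were above 0 with a median of 0.00 in plusFoxp3 cells, and 51.3% were below 0 in minusFoxp3 cells. Most of the single genes did not pass: Cep112 was the called GFP Treg-high gene, and Ggt5 and A530021J07Rik the called GFP Treg-low genes.

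At an unadjusted p under 0.05, 126 of the 293 GFP Treg-high genes (43.0%, against 2.47% of all genes) were higher late and 2 (0.683%, against 1.99%) were lower. In minusFoxp3 cells 9 of the same 293 genes were higher and 15 lower, where 1.53% and 2.85% of all genes were. The 2 lower in plusFoxp3 cells were Map2 (log2 fold change -0.80) and Rassf6 (-2.11), both with an edgeR adjusted p of 1.00. Of the 202 GFP Treg-low genes 67 (33.2%, against 1.99% of all genes) were lower late and 0 were higher. In minusFoxp3 cells 4 of the 202 were lower and 6 higher, where 2.85% and 1.53% of all genes were. The 4 late libraries all lay above the 4 early ones for 51 GFP Treg-high genes (17.4%), against 415 of all genes tested (2.06%), and all below for 21 GFP Treg-low genes (10.4%), against 227 of all genes (1.12%). In minusFoxp3 cells, where 366 genes (1.81%) lay above and 574 (2.84%) below, the same counts were 6 and 2. Of the 49 DESeq2 calls, 24 of the 27 higher genes were GFP Treg-high and 16 of the 22 lower genes were GFP Treg-low, sets that make up 1.45% and 1% of the genes tested. The other 3 higher genes were Ncf4, the haemoglobin chain Hbb-bs and the B cell marker Ms4a1, whose lineage marker sums are given with the named genes.

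The shift was spread over the days. For each library the median log2 difference from the minusFoxp3 libraries was taken over the GFP Treg-high genes. It was 0.53 and 0.54 at day 3, 0.83 and 0.67 at day 7, 0.99 and 0.89 at day 14, and 1.35 and 1.19 at day 28. The late values did not overlap the early ones, and GFP Treg libraries, which chose the genes, were at 1.92 and 1.88. The GFP Treg-low genes gave -0.55 and -0.55 at day 3, -0.80 and -0.71 at day 7, -0.77 and -0.93 at day 14, and -1.13 and -1.23 at day 28, where 1 library of day 14 overlapped the day 7 range. The minusFoxp3 libraries of these days stayed between -0.17 and 0.12 on the first set and between -0.12 and 0.10 on the second.

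**Figure D2:**
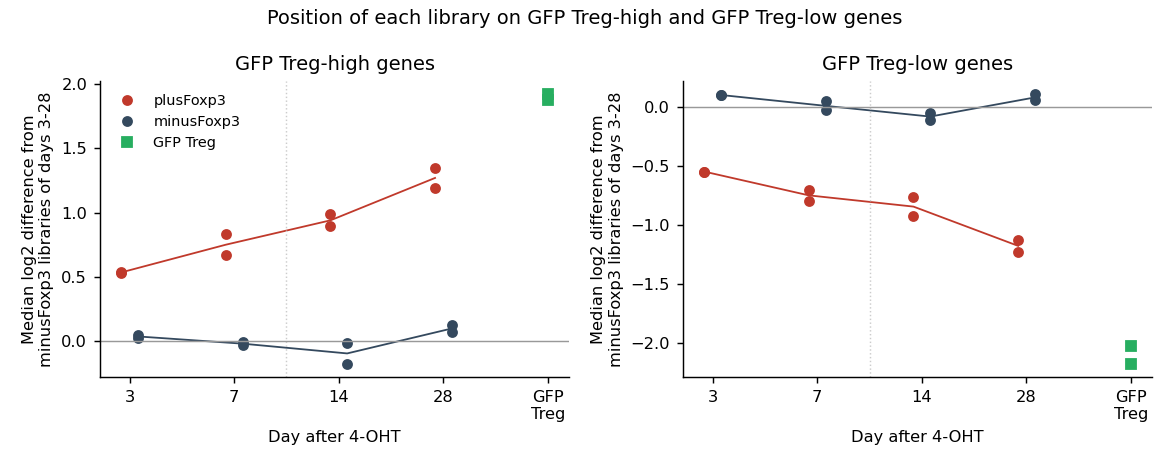
Median log2 difference of each library from the minusFoxp3 libraries of days 3 to 28, over 293 GFP Treg-high genes (left) and 202 GFP Treg-low genes (right), against day after 4-OHT, with 1 point per library and lines through the means. The plusFoxp3 points go from 0.53 at day 3 to 1.35 at day 28 on the left and from -0.55 to -1.23 on the right, while the minusFoxp3 points stay near 0.

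GFP Treg cells were also compared with each period directly. Against early plusFoxp3 cells 259 genes were called (1.28%), 162 higher and 97 lower in GFP Treg cells, and against late plusFoxp3 cells 42 were called (0.208%), 20 higher and 22 lower. The 2 comparisons share the GFP Treg libraries, and the difference between their counts was not tested. The median GFP Treg-high gene was 1.28 log2 units below GFP Treg cells early and 0.78 late, and the median GFP Treg-low gene 1.39 above early and 0.95 above late. The same GFP Treg libraries chose both sets, so the size of these gaps is not independent of that choice. With only the libraries compared in the fit the counts were 290 early and 0 late, and with DESeq2 568 and 176. Without GFP Treg replicate 1 they were 88 and 8, and without replicate 2 they were 119 and 14, in fits that take the spread of the lone GFP Treg library from the other groups, and the smaller number of libraries is part of the setting. Without plusFoxp3 D14 replicate 1, D28 replicate 1 and D14 replicate 2 the late count was 14, 17 and 21, without plusFoxp3 D0 replicate 1, which stood apart from its group, it was 66, and without plusFoxp3 D3 replicate 1 the early count was 165.

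By the naming rule, 8 genes were taken that were higher late. None of them passed the correction in edgeR, and all 8 passed in DESeq2. Their late and early libraries did not overlap, which the rule required. All 8 except Ncf4 were in the GFP Treg-high set.

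Ighm (chromosome 12, 113382178 to 113386350), the constant region of the IgM heavy chain, was at 707 and 763 CPM at day 3, 950 and 821 at day 7, 1040 and 1120 at day 14, and 1597 and 1296 at day 28. Late over early, this gave 0.63 on the log2 scale (SE 0.11, edgeR adjusted p = 0.111), against 0.03 in minusFoxp3 cells, and GFP Treg cells held 2170 and 2132 CPM. Cd79b, a signalling chain of the B cell receptor, was at 12.2 to 14 CPM early and 14.6 to 29.8 CPM late, with a difference of 0.73 log2 units (SE 0.16, edgeR adjusted p = 0.235). Beside these, the summed CPM of 8 B cell markers was 18.6 to 23.5 in early and 21.8 to 45.8 in late plusFoxp3 libraries, 23.2 to 34.6 in minusFoxp3 libraries and 38.3 to 51.5 in GFP Treg cells, with no marker at 0. Cd79b is itself 1 of these 8 markers and the largest part of the plusFoxp3 sums, at a mean of 12.9 CPM early and 22.1 late. Among the others Cd79a was at a mean of 4.83 CPM early and 4.92 late, and Ms4a1 at 0.0529 early and 0.681 late. Only Ebf1 had a lower mean late, at 1.74 CPM early and 1.37 late. The part of B cell RNA in these values was not tested.

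Snx9, a sorting nexin of endocytosis, was at 7.6 and 11.2 CPM at day 3, 15.1 and 13.8 at day 7, 23.2 and 20.5 at day 14, and 36.6 and 22.5 at day 28. Late over early, this gave 1.12 on the log2 scale (SE 0.20, edgeR adjusted p = 0.111), against 0.17 in minusFoxp3 cells. Bmp7, a secreted ligand of the BMP family, was at 7.03 to 10.2 CPM early, 14.1 and 12.6 at day 14, and 29.2 and 24.9 at day 28. This was a difference of 1.13 log2 units (SE 0.24, edgeR adjusted p = 0.228), with 0.46 in minusFoxp3 cells. Fah, the last enzyme of tyrosine breakdown, was at 6.47 to 8.96 CPM early and 12.1 to 20.1 CPM late (log2 fold change 1.05, SE 0.22, edgeR adjusted p = 0.231), and its minusFoxp3 value was -0.10. For these 3 genes GFP Treg cells held more than every late library.

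Neb, which encodes the giant thin-filament protein nebulin, was at 26.6 to 40.9 CPM early and 41.5 to 59.4 CPM late, with a difference of 0.65 log2 units (SE 0.13, edgeR adjusted p = 0.225). Ncf4, a subunit of the phagocyte NADPH oxidase, was at 90.2 to 94.1 CPM early, 109 and 111 at day 14, and 141 and 135 at day 28. Late over early, this gave 0.43 on the log2 scale (SE 0.09, edgeR adjusted p = 0.229), against 0.05 in minusFoxp3 cells. Cybb, the catalytic subunit of the same oxidase and one of the myeloid markers, was at 4.98 to 13.6 CPM early and 11.1 to 29.6 CPM late (log2 fold change 1.18, SE 0.27, edgeR adjusted p = 0.264). The summed CPM of 8 myeloid markers was 8 to 20.4 in early and 14.6 to 39.1 in late plusFoxp3 libraries. In GFP Treg cells it was 46.8 to 48.4. On average Cybb itself made up most of these sums, at 7.91 CPM early, 18.6 late and 41.4 in GFP Treg cells. Lyz2 had the next highest mean, at 1.24 CPM early, 1.62 late and 1.93 in GFP Treg cells. The part of myeloid RNA in these values was not tested. Erythroid markers summed to 0.627 to 1.71 CPM early and 0.773 to 25.7 CPM late. CD8 and NK cell markers summed to 43.8 to 48.9 and 41.4 to 71.3 CPM, with Ncr1 at 0 in every late library. Double-positive thymocyte markers summed to 65.7 to 86.3 and 64.1 to 82.1 CPM. The late erythroid counts lay mostly in plusFoxp3 D28 replicate 1. There Hbb-bs was at 8.24 and Hba-a1 at 8.74 CPM, against late means of 2.49 and 2.48. That library also had the highest GFP Treg-high median of the plusFoxp3 libraries, at 1.35. Without it the median change from early to late was 0.37 for GFP Treg-high and -0.46 for GFP Treg-low genes. The part of RNA of other lineages in its values was not tested.

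On the lower side the rule gave Ggt5 and 7 genes that did not pass in edgeR. Mctp2, a calcium-binding membrane protein with C2 domains, was at 4.97 to 10.5 CPM early and 3.23 to 3.64 CPM late. Late over early, this gave -1.18 on the log2 scale (SE 0.26, edgeR adjusted p = 0.235), against 0.39 in minusFoxp3 cells, and it was in the GFP Treg-low set. Lmo4, a LIM-domain transcriptional cofactor, was at 24 and 25 CPM at day 3, 21.3 and 20.7 at day 7, 14 and 16.5 at day 14, and 9.93 and 11.8 at day 28. This was a difference of -0.82 log2 units (SE 0.19, edgeR adjusted p = 0.264), with -0.25 in minusFoxp3 cells. Both passed in DESeq2, and GFP Treg cells held 1.27 and 0.916 CPM of Mctp2 and 10.7 and 6.18 CPM of Lmo4.

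Slc39a8, a zinc and manganese importer, was at 17.1 to 22.9 CPM early and 9.46 to 15.3 CPM late (log2 fold change -0.72, SE 0.22, edgeR adjusted p = 0.674). Cd24a, a surface glycoprotein that falls as thymocytes mature, was at 3.38 to 5.52 CPM early and 0.718 to 3.13 CPM late (log2 fold change -1.08, SE 0.33, edgeR adjusted p = 0.676). Slc25a15, the mitochondrial ornithine carrier, was at 17.2 to 23.4 CPM early and 11.5 to 15 CPM late, with a difference of -0.57 log2 units (SE 0.18, edgeR adjusted p = 0.679). In minusFoxp3 cells these 3 genes had log2 fold changes of 0.04, -0.04 and -0.13. Frmd4a, a FERM-domain scaffold of cell polarity, and Qser1 gave -1.27 and -0.70, with edgeR adjusted p-values of 0.674 and 0.567. GFP Treg cells held 4.61 and 1.99 CPM of Frmd4a and 7.43 and 6.92 CPM of Qser1, each above or within the range of the late libraries.

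**Figure D3:**
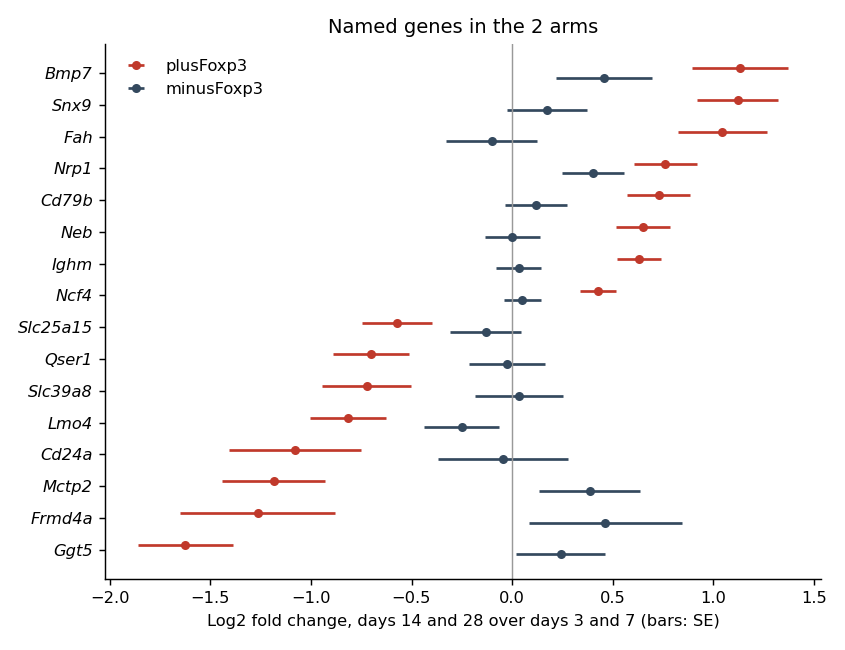
Log2 fold change of days 14 and 28 over days 3 and 7 for the 16 genes chosen by the rule, in plusFoxp3 and minusFoxp3 cells, with bars of 1 SE. The plusFoxp3 values run from -1.62 for Ggt5 to 1.13 for Bmp7, and the minusFoxp3 values lie between -0.25 for Lmo4 and 0.46 for Bmp7 and Frmd4a.

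The list of Treg programme genes raised by Foxp3 held 26 genes, all tested, and 0 were called, against 0.0198% of all genes. Of these, 24 had log2 fold changes above 0 in plusFoxp3 cells, with a median of 0.25 against 0.06 in minusFoxp3 cells and 0.00 over all genes. At an unadjusted p under 0.05, 7 were higher late (26.9%, against 2.47% of all genes) and 0 were lower, and 6 had late libraries above all early ones (23.1%, against 2.06%). The study names several of these genes from related samples, so the list is not independent evidence of its direction. Its member Pdlim4 was in the GFP Treg-low set, 4.08 log2 units lower in GFP Treg than in minusFoxp3 day 0 cells. In plusFoxp3 cells the log2 fold change of Pdlim4 from early to late was -0.69.

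Itgae, the alpha E integrin that binds E-cadherin, was at 12.3 and 14.8 CPM at day 3, 25.6 and 23.7 at day 7, 54.4 and 39.1 at day 14, and 76.8 and 60.1 at day 28. GFP Treg cells held 204 and 232 CPM and minusFoxp3 libraries 0.553 to 4.94 CPM, and the log2 fold change was 1.63 (SE 0.41, edgeR adjusted p = 0.42). Haspin lies within this gene on the opposite strand. Entpd1, the ectonucleotidase CD39, was at 23 to 30.4 CPM early and 37.9 to 56.8 CPM late (log2 fold change 0.80, SE 0.19, edgeR adjusted p = 0.319), with 0.15 in minusFoxp3 cells.

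Nrp1, the semaphorin receptor neuropilin 1, was at 118 and 123 CPM at day 3, 120 and 136 at day 7, 173 and 181 at day 14, and 218 and 284 at day 28. Its log2 fold change was 0.76 (SE 0.16, edgeR adjusted p = 0.225). The minusFoxp3 libraries also differed by day, at 76.5 to 89.9 CPM early and 92.4 to 129 CPM late, with a log2 fold change of 0.40 (unadjusted p = 0.0197, edgeR adjusted p = 0.988). The difference between the 2 changes was 0.36 (edgeR adjusted p = 0.92).

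Lrrc32, which presents latent TGF-beta on Treg cells, was at 174 to 221 CPM early and 246 to 332 CPM late, with a difference of 0.63 log2 units (SE 0.22, edgeR adjusted p = 0.831). Cd83, a surface protein of activated lymphocytes and dendritic cells, was at 68.6 to 83.5 CPM early and 102 to 145 CPM late (log2 fold change 0.70, SE 0.16, edgeR adjusted p = 0.264). Izumo1r, which encodes FR4, was at 488 and 516 CPM at day 3 and at 809 and 792 CPM at day 28, where GFP Treg cells held 976 and 910 CPM. Its log2 fold change was 0.39 (SE 0.12, edgeR adjusted p = 0.707). For Capg, an actin-capping protein, the log2 fold change was 0.43 (SE 0.15, edgeR adjusted p = 0.899).

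Of the chains of the IL-2 receptor, Il2ra and Il2rb were above the minusFoxp3 level in all early libraries and Il2rg was not. Il2ra, the alpha chain CD25, was at 436 to 597 CPM early and 535 to 665 CPM late, with minusFoxp3 libraries at 229 to 292 CPM. Its log2 fold change was 0.17 (SE 0.15, edgeR adjusted p = 1.00). Il2rb was at 1000 to 1214 CPM early and 1237 to 1354 CPM late, and its log2 difference of 0.28 (SE 0.14, edgeR adjusted p = 1.00) did not pass although the libraries did not overlap. Il2rg, the shared gamma chain, was at 748 to 878 CPM early and 771 to 908 CPM late, with minusFoxp3 libraries at 720 to 771 CPM. In the IL-2 and STAT5 response list 11 of 13 genes (84.6%, against 50.4% of all genes) were above 0 with a median of 0.12, against 9 of 13 and 0.04 in minusFoxp3 cells. In plusFoxp3 cells 1 of 13 (7.69%, against 2.47%) was higher at an unadjusted p under 0.05. Ctla4, the inhibitory receptor that competes with CD28, was at 420 and 411 CPM at day 3 and at 585 and 378 CPM at day 28. Rgs1, a regulator of G protein signalling, had a log2 fold change of -0.04, and for both genes late and early libraries overlapped.

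**Figure D4:**
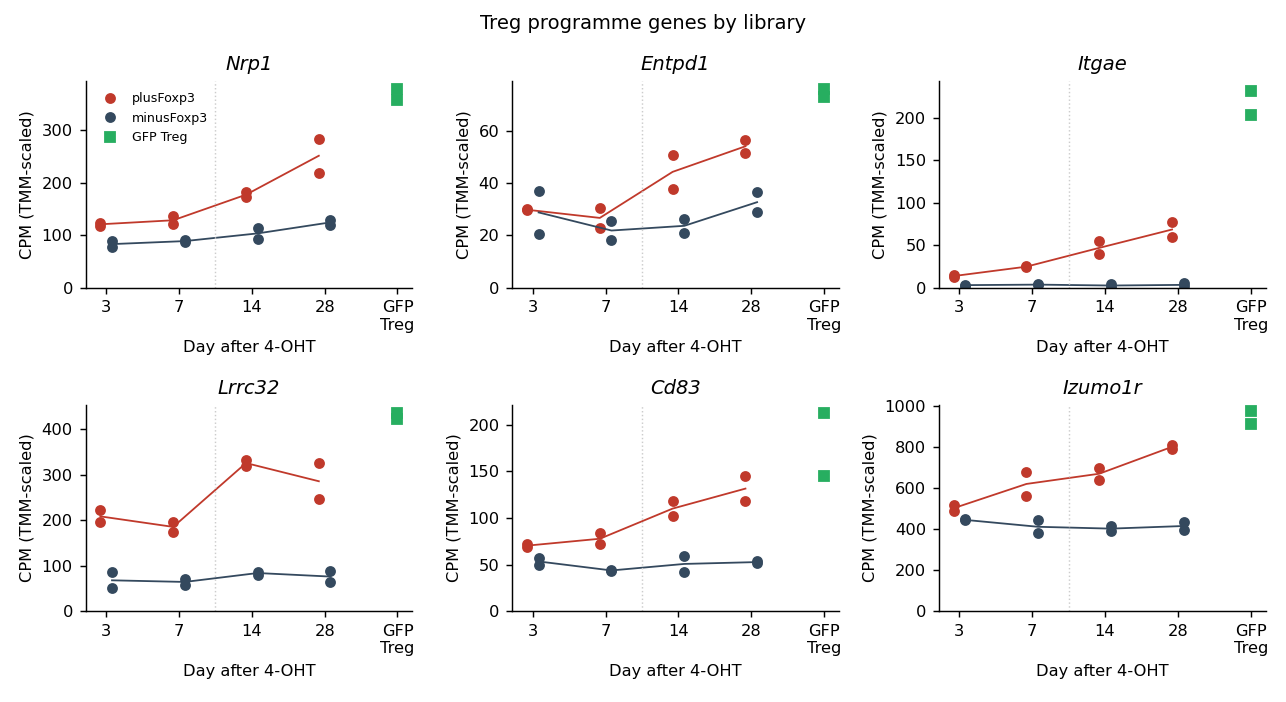
CPM of 6 Treg programme genes against day after 4-OHT, with 1 point per library, lines through the means of 2 libraries, and GFP Treg libraries as squares. The plusFoxp3 points of Itgae go from 12.3 CPM at day 3 to 76.8 CPM at day 28 with GFP Treg at 204 and 232 CPM, and the minusFoxp3 points stay below 5 CPM.

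The list of naive and conventional T cell genes lowered by Foxp3 held 18 tested genes with 0 called, against 0.0198% of all genes. Of these, 13 were below 0 in plusFoxp3 cells with a median of -0.15, against 7 and a median of 0.05 in minusFoxp3 cells. At an unadjusted p under 0.05, 5 were lower (27.8%, against 1.99% of all genes) and 0 were higher. Late libraries lay all above or all below the early ones for 0 genes of the list, against 2.06% and 1.12% of all genes. The 5 lower genes were the transcription factors Sox4, Id2, Bach2 and Tcf7 and the phosphodiesterase Pde3b, named after their values were seen. The study places Tcf7, Id2 and Sox4 among the genes repressed by Foxp3, so this list too is not independent evidence of its direction.

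Sox4 was at 75.7 and 62.9 CPM at day 3, 40.7 and 66 at day 7, 48.1 and 47.7 at day 14, and 17.4 and 24.4 at day 28. GFP Treg cells held 26.7 and 17.7 CPM, so the day 28 libraries were near that level, and the log2 fold change was -0.94 (SE 0.23, edgeR adjusted p = 0.36). Pde3b was at 18.5 to 39.3 CPM early and 9.69 to 26.4 CPM late. Its log2 fold change was -0.88 (SE 0.23, edgeR adjusted p = 0.543), with 0.52 in minusFoxp3 cells. Tcf7, which encodes TCF1, was at 1169 and 1145 CPM at day 3, 797 and 955 at day 7, 962 and 969 at day 14, and 701 and 779 at day 28, while minusFoxp3 libraries held 1455 to 1837 CPM and GFP Treg cells 487 and 446 CPM. The log2 fold change was -0.25 (SE 0.12, edgeR adjusted p = 1.00). Lef1, Satb1 and Igfbp4 had values of -0.09, -0.22 and 0.11, all with an edgeR adjusted p of 1.00.

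Other groups held 0 called genes as well, against 0.0198% of all genes. Among 16 effector Treg genes 5 were higher (31.3%, against 2.47% of all genes) and 1 lower (6.25%, against 1.99%) at an unadjusted p under 0.05, with a median of 0.18 against -0.20 in minusFoxp3 cells. Klrg1, an inhibitory receptor of differentiated cells, was at 0.207 to 1.55 CPM early, 3.05 and 0.853 at day 14, 13.7 and 5.09 at day 28, and 26.2 and 33.9 in GFP Treg cells (log2 fold change 2.64, SE 0.89, edgeR adjusted p = 0.803). Il1rl1, the IL-33 receptor ST2, was at 0.865 to 2.8 CPM early and 2.64 to 8.45 CPM late (edgeR adjusted p = 0.612). Of the acute T cell receptor response genes 15 of 19 were below 0 with a median of -0.19, against 4 of 19 and 0.09 in minusFoxp3 cells, and 0 of 19 passed an unadjusted p under 0.05 in plusFoxp3 cells.

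Homing and quiescence genes had 4 of 18 higher (22.2%, against 2.47% of all genes) and 0 lower at an unadjusted p under 0.05, with a median of 0.04 against 0.06 in minusFoxp3 cells. Among the 4 was Itgb1, the integrin beta 1 chain, at 134 to 173 CPM early and 246 to 373 CPM late (log2 fold change 0.94, SE 0.22, edgeR adjusted p = 0.284). Thymic egress and maturation genes had 2 of 16 higher (12.5%, against 2.47%) and 2 lower (12.5%, against 1.99%), with Ly6a at 161 to 268 CPM early and 226 to 535 CPM late (log2 fold change 0.78, SE 0.17, edgeR adjusted p = 0.264). Effector cytokines and helper regulators had 2 of 17 higher (11.8%, against 2.47%) and 1 lower (5.88%, against 1.99%), with a median of -0.21, near the -0.18 of minusFoxp3 cells. Gata3, the regulator of type 2 helper cells, gave 0.12 (SE 0.11, edgeR adjusted p = 1.00). The chemokine receptor Cxcr3 gave 1.11 (SE 0.50, edgeR adjusted p = 1.00), at 17.7 to 39.9 CPM early and 27.4 to 107 CPM late.

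In the interferon response list 4 of 20 genes were higher (20%, against 2.47% of all genes) and 2 lower (10%, against 1.99%) in plusFoxp3 cells at an unadjusted p under 0.05, with a median of -0.05. In minusFoxp3 cells 0 were higher and 6 lower, where 1.53% and 2.85% of all genes were, with a median of -0.25. Within the list, Ifit1, an interferon-induced RNA-binding protein, had log2 fold changes of -0.52 in plusFoxp3 and -0.53 in minusFoxp3 cells, and Rsad2, the antiviral enzyme viperin, -0.80 and -0.75. Of the 6 genes that the rule named for the minusFoxp3 comparison, 2 had values of like size in both arms and 4 did not. Tgm2, a transglutaminase, gave 0.66 in plusFoxp3 and 0.91 in minusFoxp3 cells, and Bcam, a laminin receptor, 0.80 and 0.81. Ifi27l2a, an interferon-induced gene, gave 0.23 in plusFoxp3 and -0.71 in minusFoxp3 cells, Afm, a vitamin E carrier, 0.31 and -1.01, the RNA-binding Rbm45 0.07 and -0.64, and the zinc finger gene Zbtb44 0.01 and 0.42. The rule for the difference between the arms also named Ccs, the copper chaperone of superoxide dismutase, at 0.48 and -0.21, and the RNA-binding Mex3b at -0.45 and 0.34. None of these 10 genes passed the correction in either arm or for the difference between the arms. The T cell receptor signalling, costimulatory receptor, cell cycle, Gimap and metabolism lists had medians between -0.09 and 0.08 in plusFoxp3 cells, and at most 2 genes of each list were higher and 0 lower at an unadjusted p under 0.05 (11.8% of the metabolism list, against 2.47% of all genes).

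**Figure D5:**
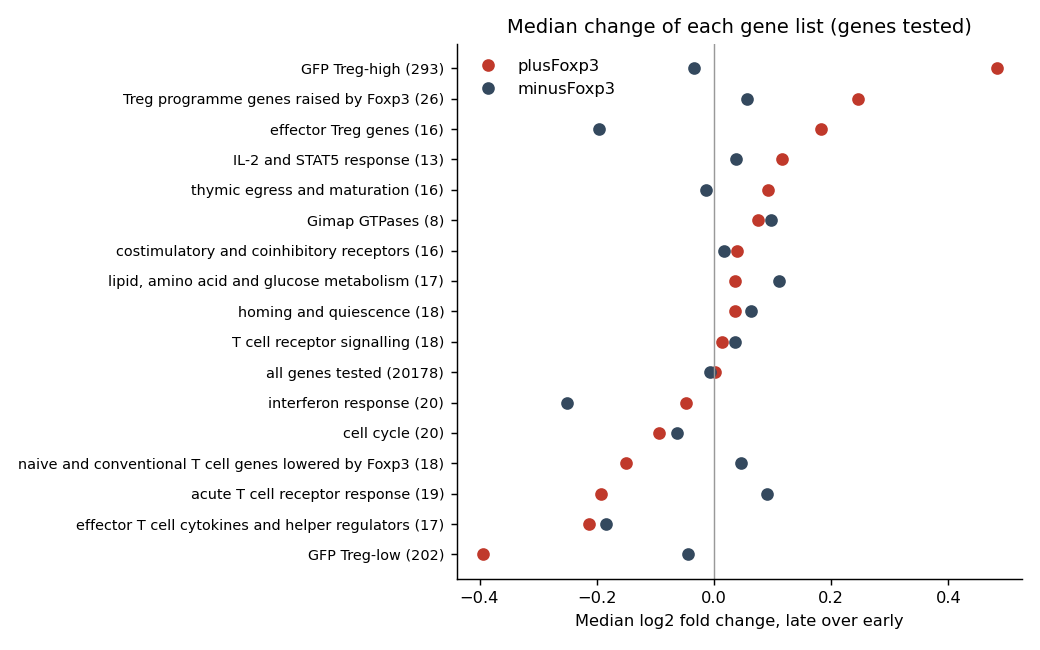
Median log2 fold change of late over early cells for each gene list, in plusFoxp3 and minusFoxp3 cells, with the number of genes tested in brackets. The GFP Treg-high genes lie at 0.48 in plusFoxp3 and -0.03 in minusFoxp3 cells, the GFP Treg-low genes at -0.39 and -0.04, and all genes tested at 0.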

How the data were processed

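Per the file headers, the authors used featureCounts 2.0.3 to obtain the deposited counts of read pairs for each GENCODE M30 gene name on mm39, ignoring strand. The methods name STAR and the processing notes Bowtie2 as aligner. The headers of these files show none of the mapping-quality limits that the methods state. Genes with near-identical copies are uncertain. The libraries had poly(A) RNA amplified with a SMART-Seq kit.

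Counts of the 22 resting libraries were scaled by TMM and compared in R 4.3.3 using edgeR 4.0.16 (glmQLFTest, robust), with 1 mean for each of 11 groups. Late minus early is the mean of days 14 and 28 minus that of days 3 and 7. Genes were called at a Benjamini-Hochberg adjusted p under 0.05, and adjusted p-values printed as 1.00 are rounded. SEs were derived from the fold change and F statistic. Log2 CPM used a prior count of 2. Named genes were Foxp3, genes called or, failing 8, with the smallest p among those with no overlap, at least 100 mean counts and no Gm or Rik name, and up to 4 of highest mean in each of 14 lists. Members, lists and tests were chosen with earlier results of these data known. DESeq2 1.42.0 and the other alternatives are given at the end. The fit was tested on simulated data. It called 98% and 100% of genes changed by -2 and 2 log2 units, and 70% and 82% at -1 and 1. There were 6 false calls among unchanged genes. The changed genes had at least 100 mean counts, a level that Dkk3 and Cep112 did not reach. Each size of change was given to 50 genes. The simulated spread followed the trend with expression alone, without a spread particular to each gene or a shared replicate effect. These rates therefore need not hold for the real libraries, and they do not show how many changes were missed there. Replicates were checked for a library deposited more than once and none was found.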

Additional observations from a re-analysis of the deposited data

Results flagged for a closer look

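Dkk3 is listed because the difference between its plusFoxp3 and minusFoxp3 changes passed the test, at -4.60 on the log2 scale (edgeR adjusted p = 0.028). With a replicate block the adjusted p was 0.0554.

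Over 57 genes, the 4 early and the 4 late libraries of each arm were searched for 1 library far from the other 3. In 17 of 228 groups (7.46%) such a library was found. The limit used passes about 1 in 20 groups drawn from 1 normal population. Each group here pools different days, and all genes share the same libraries, so that rate is not a chance rate for these groups. In plusFoxp3 cells, Foxp3 was low in D7 replicate 1 at 436 CPM against 575 to 599 and in D28 replicate 1 at 521 CPM against 625 to 630. In D28 replicate 1 Snx9 was high at 36.6 CPM, Lrrc32 low at 246 CPM and Id2 high at 129 CPM, against 76.9 to 80.5 CPM of Id2 in the other late libraries. Qser1 was high in D14 replicate 2 at 7.32 CPM, Entpd1 low in D7 replicate 2 at 23 CPM and in D7 replicate 1 Cxcr3 was high at 39.9 CPM and Rbm45 at 12.3 CPM.

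In minusFoxp3 cells, D14 replicate 1 was low for Ighm at 481 CPM and for Tcf7 at 1455 CPM, and high for Lef1 at 585 CPM and Itm2a at 300 CPM. Cd24a was high at 7.39 CPM and Izumo1r low at 379 CPM in D7 replicate 2, Ctla4 was high in D3 replicate 2 at 537 CPM and Rbm45 in D14 replicate 2 at 11 CPM.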

How the results depend on the processing

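Medians of the GFP Treg-high and GFP Treg-low genes kept their sign in plusFoxp3 cells under every alternative run, while counts of calls did not hold. In the order plusFoxp3, minusFoxp3, their difference, GFP Treg minus late and GFP Treg minus early, the fit without a count filter called 321, 143, 239, 560 and 1090 genes, and DESeq2 49, 0, 17, 176 and 568. With only the libraries compared, the plusFoxp3 count, the difference and GFP Treg minus late each gave 0, and with 1 mean per period the plusFoxp3 count was 0. With late as day 28 only, 16 plusFoxp3 genes were called, and with late as day 14 only or early as day 7 only 0 were. The difference was 0 for each of these and for day 3 only. The cause was not tested.

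Leaving out each library gave 0 to 5 plusFoxp3, 0 to 1 minusFoxp3, 0 to 2 difference, 8 to 66 late and 88 to 337 early calls. In plusFoxp3 cells the medians were then 0.37 to 0.53 and -0.47 to -0.34, and in minusFoxp3 cells -0.0629 to 0.0228 and -0.0724 to -0.0149.

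With late as day 28 only, the GFP Treg-high and GFP Treg-low medians were 0.67 and -0.51 in plusFoxp3 and 0.0573 and 0.0250 in minusFoxp3 cells. With day 14 only they were 0.34 and -0.23, and -0.0845 and -0.1015 in minusFoxp3 cells. With early as day 3 only they were 0.62 and -0.47 in plusFoxp3 cells, and the GFP Treg-low median was -0.0949 in minusFoxp3 cells. With day 7 only they were 0.39 and -0.32 in plusFoxp3 cells, and the GFP Treg-high median was 0.0336 in minusFoxp3 cells.

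No label says what a replicate number shares. Deviations of same-numbered libraries correlated at -0.0107 to 0.238 over 28 pairs of the 8 groups, 25 of them above 0, and replicate 1 lay above replicate 2 on the second principal component in 11 of 11 groups, a hint from the data that numbers share something. Since not every pair was over 0.1, samples were not treated as paired. A fit with a replicate block called 4, 0, 0, 52 and 339 genes, with the Dkk3 difference at an adjusted p of 0.0554. The comparison of GFP Treg with early cells, the reference medians and leaving out plusFoxp3 D0 replicate 1 were chosen after seeing the data. Of 1660 recomputed values of single named genes 1516 stayed near the reported ones, 81 moved, 39 lost and 24 gained a call, and none reversed. Dkk3 had 15 read pairs in all late libraries and Cep112 20 in all early ones, and the effect of depth on them was not tested.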
